A study of Mus musculus with 8 samples.

Results

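The genes described here are the Vps, Chmp and Snx genes of the mouse, which encode much of the machinery that sorts membrane proteins in endosomes. They were taken as every gene whose symbol on the array begins with Vps, Chmp or Snx followed by a digit, which gave 66 of the 16593 genes on the platform, read by 98 probes. RNA levels were read in 8 samples of C57BL/6 mouse cells with the Illumina MouseRef-8 v2.0 array, on which beads carry the probes. The 3 neuron samples were cells that had differentiated for 4 days in N2B27 medium, had been replated in Neurobasal medium with B27, and had then been purified in a flow cytometer by the red fluorescence of the protein RedStar. RedStar was under the control of the promoter of Tau (Mapt), a microtubule protein of neurons, so the sort selected for cells in which that promoter was active. The 5 neural stem cell (NSC) samples were derived from mouse embryonic stem cells, kept in Euromed-N medium with N2, FGF2 and EGF, and were negative for the reporter. Whether replicates of a group came from separate cultures is not stated, so the p-values cover only the spread among these arrays, and that spread may be technical.

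Proteins taken into a cell arrive in early endosomes, where they are either returned to the surface or the Golgi, or passed on to the lysosome for breakdown. Retromer and the sorting nexins form the tubules that carry receptors back, the ESCRT complexes press ubiquitin-tagged receptors into the vesicles of the multivesicular body, and the CORVET and HOPS tethers join endosomes to one another and to lysosomes. GARP and EARP are tethers that receive the vesicles returning from endosomes at the Golgi or at recycling endosomes. Neurons rely on these routes to recycle receptors and synaptic proteins over long distances, and mutations in several of the genes, VPS35 among them, cause neurodegenerative disease in humans.

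The arrays had median signals of 80.3 to 84.7, and the lowest correlation of log2 values across probes within a group was 0.989, against at most 0.867 between groups. All 7 tested neuron markers were higher in neurons, with summed levels of 5488 to 7417 in neurons and 2132 to 3192 in NSCs, although Tubb3, Stmn2, Snap25, Elavl3 and Elavl4 were above background on no array. Each sum runs over all genes of a list with a probe, also those at background. Mapt, whose promoter drove the sort, is 1 of the 7. Dcx, Mapt, Rbfox3, Stmn3 and Gap43 were detected on no NSC array. They entered the test only through the neuron arrays, which set their direction. In NSCs Map2 and Syn1 alone of the 7 were detected, at mean log2 levels of 11.12 and 6.76. Of 12 NSC markers 8 were lower and 3 higher, with sums of 11650 to 12470 in neurons and 22290 to 23900 in NSCs. The 3 that were higher in neurons were Olig2 by 0.85, Egfr by 0.61 and Sox2 by 0.37 on the log2 scale. Cd44, which was lower, was detected on no neuron array. The 5 tested markers of dividing cells were all lower, with sums of 174.9 to 189.9 in neurons and 10460 to 11190 in NSCs. Of these Top2a, Cdk1, Cdc20 and Prc1 were detected on no neuron array. They entered the test only through NSCs, which set their direction, and the neuron sums lie near background. Markers of astrocytes summed to 918 to 1007 in neurons and 4125 to 4869 in NSCs, with 3 of 4 tested lower and Gfap, Aqp4, Glul and Apoe on no array. Markers of the oligodendrocyte lineage summed to 745.3 to 915.8 in neurons and 265.5 to 301.8 in NSCs, with 3 of 5 tested higher, 1 lower and Mbp, Mag and Mog on no array. The 3 that were higher, Pdgfra, Gpr17 and Fa2h, were detected on every neuron array and on no NSC array. Their direction was set by the neuron arrays, through which alone these 3 entered the test. The 2 tested markers of pluripotent cells were lower, with list sums of 135.9 to 151.6 in neurons and 204.3 to 225.7 in NSCs, with Pou5f1, Nanog and Zfp42 on no array, and 1 microglial marker was tested and not called, with sums of 100.9 to 108 in neurons and 97.19 to 113.2 in NSCs. Only 2 of 5 pluripotent and 1 of 4 microglial genes were detected on any array, so these sums hold much background. Esrrb, 1 of the 2 pluripotent markers, was detected on no neuron array. These markers moved with the group, and their part in the differences below was not tested. The samples are bulk RNA, so fewer cells of a type and less RNA per cell cannot be told apart, and array position, medium and sorting followed the group and cannot be told apart from it.

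Of the 66 genes, 54 were above background on enough arrays to be tested, which is 81.8% of them against 44.6% of all genes on the platform. Levels are given on the normalized log2 scale, and each difference is neuron minus NSC, so a difference of 1 is a 2-fold change. A gene counts as called where the p-value of the limma fit, adjusted over all tested probes, was below 0.05. By this rule 32 endosomal sorting genes were higher in neurons, or 59.3% of the 54 tested, against 35.4% of the 7407 genes tested in all. Another 6 were lower, or 11.1%, against 29.2% of all tested genes, and 16 were not called. In either direction 38 were called, or 70.4% against 64.6%, so the share of called genes lay near that of the array as a whole, while the calls were split between the directions in other proportions; neither was tested. The median difference was 0.32 for the 54 genes and 0.06 for all tested genes.

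Most of these changes were small. Only 6 of the 38 called genes differed at least 2-fold, or 11.1% of the tested genes against 22.4% of all genes, and 21 differed by less than 1.5-fold. The genes that rose did so by 1.20-fold to 3.52-fold with a median of 1.39-fold, and those that fell did so by 1.26-fold to 2.31-fold with a median of 1.50-fold. Values of the neuron and NSC arrays did not overlap for 34 of the genes, or 63.0% against 61.1% of all tested genes. The median standard deviation within a group was 0.135 in neurons (n = 3) and 0.15 in NSCs (n = 5). Restricting the test to genes detected on all 8 arrays gave 31 higher (60.8%) and 6 lower (11.8%) of 51, beside 36.3% and 28.9% of 5820 genes. The split depended on the scaling in size. With cyclic loess 25 genes were higher and 6 lower, with a median of 0.247 over the set and -0.00011 over all genes. With median scaling, which moved the median of all genes by 0.17, 37 were higher and 4 lower. Under median scaling 66.1% of the calls over all genes were higher in neurons, against 54.8% with quantile normalization.

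**Figure D1:**
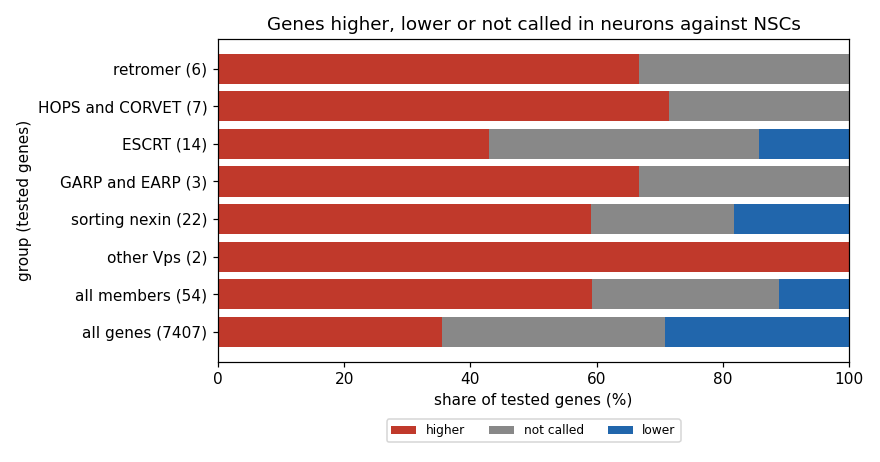
The bars give the share of tested genes (%) that were higher, not called or lower in neurons against NSCs, for each class, for all 54 tested Vps, Chmp and Snx genes and for all 7407 tested genes, with the number tested in brackets; the HOPS and CORVET bar includes Vps33b. All 6 classes show a larger share of genes higher in neurons than the 35.4% of all genes, from 42.9% for ESCRT upward, and genes that fell are seen only among ESCRT and the sorting nexins.

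The classes differed in how evenly they moved. No retromer, HOPS and CORVET, or GARP and EARP gene fell, whereas ESCRT held 2 and the sorting nexins 4 of the 6 genes that did. Those are 14.3% of the tested ESCRT genes and 18.2% of the tested sorting nexins, against 29.2% of all tested genes. Higher in neurons were 66.7% of retromer, 71.4% of HOPS and CORVET and 66.7% of GARP and EARP genes. For ESCRT the share was 42.9% and for the sorting nexins 59.1%, against 35.4% of all tested genes. The median difference was 0.39 over 6 retromer and retriever genes, 0.48 over 7 genes of HOPS and CORVET counted with Vps33b (0.49 over 6 without it), 0.24 over 14 ESCRT genes, 0.63 over 3 GARP and EARP genes, 0.30 over 22 sorting nexins and 0.37 over the remaining 2 Vps genes. Differences between the classes were not tested.

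**Figure D2:**
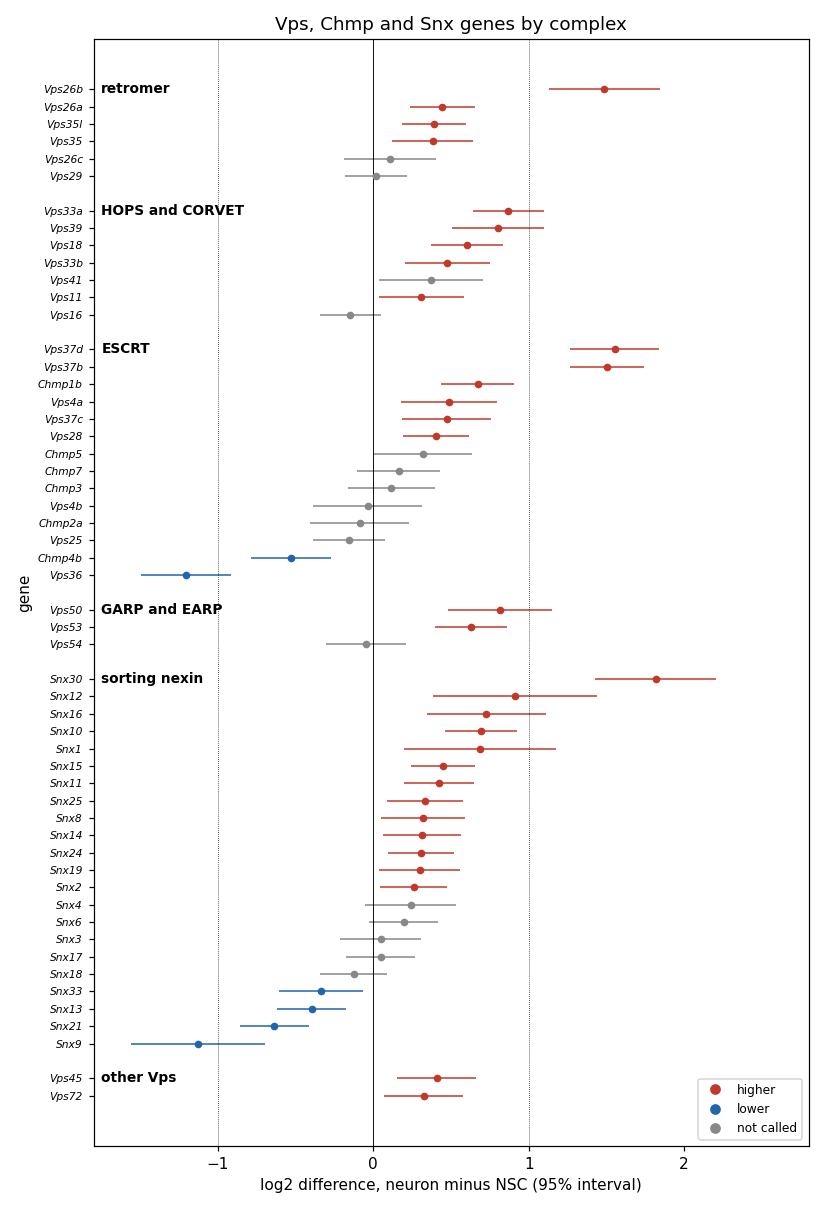
Each row is 1 of the 54 tested genes, grouped by class, with its log2 difference (neuron minus NSC) on the horizontal axis and its 95% interval as a bar. Most points lie a little to the right of 0, with Snx30 farthest to the right at 1.82 and Vps36 farthest to the left at -1.21.

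The 6 genes that differed at least 2-fold belonged to 3 complexes or families. Higher in neurons were Snx30, the ESCRT-I subunits Vps37d and Vps37b, and the retromer subunit Vps26b, and lower were the ESCRT-II subunit Vps36 and the sorting nexin Snx9. Snx30, a sorting nexin with a membrane-bending BAR domain, had 7.94, 7.77 and 7.92 in the neuron samples, against 6.57, 6.20, 6.02, 5.86 and 5.66 in the NSC samples. The neuron values lay within 0.2 of each other while the NSC values spread over almost 1 unit, and every neuron array lay above every NSC array, with a difference of 1.82 (SE 0.18, adjusted p = 4.88e-06) or 3.52-fold.

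Vps26b, the alternative arrestin-like subunit of retromer, had 7.21, 6.59 and 7.15 in the neuron samples, against 5.53, 5.80, 5.27, 5.35 and 5.55 in the NSC samples. Its difference was 1.49 (SE 0.16, adjusted p = 1.22e-05), or 2.80-fold, and the lowest neuron array still stood well above the highest NSC array. Without background correction the difference was 0.84. Vps37d, 1 of the alternative Vps37 subunits of ESCRT-I, which recognizes ubiquitin-tagged cargo, had 7.89, 8.02 and 8.14 in the neuron samples, against 6.67, 6.69, 6.41, 6.29 and 6.25 in the NSC samples. Its relative Vps37b had 10.87, 10.74 and 10.82 in the neuron samples, against 9.46, 9.29, 9.42, 9.07 and 9.31 in the NSC samples. For both Vps37 genes every neuron array lay above every NSC array, and they differed by 1.55 (SE 0.13, adjusted p = 1.38e-06), 2.94-fold, for Vps37d and by 1.50 (SE 0.11, adjusted p = 4.1e-07), 2.83-fold, for Vps37b.

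Vps36, the subunit through which ESCRT-II binds ubiquitin and membrane lipid, had 7.55, 7.91 and 7.94 in the neuron samples, against 9.22, 8.94, 8.77, 9.11 and 8.98 in the NSC samples. All neuron arrays lay below all NSC arrays, and the difference was -1.21 (SE 0.13, adjusted p = 1.22e-05), a 2.31-fold fall. Snx9, which binds dynamin and acts in clathrin-mediated uptake at the plasma membrane, had 5.54, 5.43 and 5.38 in the neuron samples, against 6.22, 6.14, 7.05, 6.62 and 6.86 in the NSC samples. The neuron arrays again lay below the NSC arrays, which fell into a lower pair and a higher group of 3, and the difference was -1.13 (SE 0.20, adjusted p = 0.000416), a 2.19-fold fall that measured -0.60 without background correction.

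**Figure D3:**
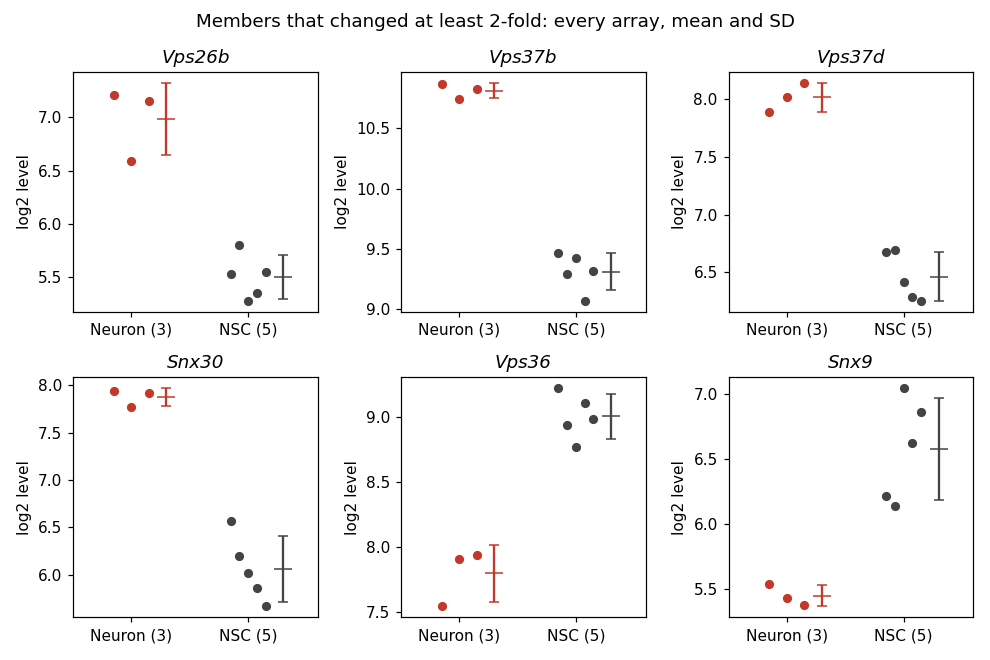
Each panel shows 1 of the 6 genes that changed at least 2-fold, with the log2 level of every array as a point (3 neuron arrays on the left, 5 NSC arrays on the right) and the mean with its SD beside the points; each vertical axis has its own range. In all 6 panels the groups do not overlap, and the spread among NSC arrays is widest for Snx9 and Snx30.

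The promoters of these genes are shown because they are the members with the largest differences. RefSeq promoter windows (build GRCm38.p6, 250 bases before to 50 bases after the start of the gene) were found for 4 of the 6, and Snx9 and Vps37b are named only. In the sequences below, capitals mark the motif GGGCGG on either strand, the core of the GC box bound by Sp1. The window of Snx30 lies at chr4:59805400-59805699, plus strand, Vps26b at chr9:27030045-27030344, minus strand, Vps36 at chr8:22192583-22192882, plus strand and Vps37d at chr5:135078217-135078516, minus strand.
Snx30: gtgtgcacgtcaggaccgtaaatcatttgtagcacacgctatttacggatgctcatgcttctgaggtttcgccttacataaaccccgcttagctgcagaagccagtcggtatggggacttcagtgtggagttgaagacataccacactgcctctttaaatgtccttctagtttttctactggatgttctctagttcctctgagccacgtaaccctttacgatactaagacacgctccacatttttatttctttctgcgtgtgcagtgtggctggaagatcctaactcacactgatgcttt
Vps26b: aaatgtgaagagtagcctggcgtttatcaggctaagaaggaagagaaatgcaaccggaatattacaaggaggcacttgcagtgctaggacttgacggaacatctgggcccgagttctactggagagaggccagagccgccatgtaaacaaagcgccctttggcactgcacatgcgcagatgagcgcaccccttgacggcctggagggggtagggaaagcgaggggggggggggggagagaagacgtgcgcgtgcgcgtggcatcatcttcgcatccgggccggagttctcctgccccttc
Vps36: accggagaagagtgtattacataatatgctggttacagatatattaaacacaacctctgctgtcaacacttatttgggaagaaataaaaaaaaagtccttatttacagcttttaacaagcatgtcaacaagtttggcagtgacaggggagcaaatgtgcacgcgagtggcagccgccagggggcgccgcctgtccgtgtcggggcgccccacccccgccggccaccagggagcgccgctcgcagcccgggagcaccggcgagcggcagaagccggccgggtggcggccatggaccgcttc
Vps37d: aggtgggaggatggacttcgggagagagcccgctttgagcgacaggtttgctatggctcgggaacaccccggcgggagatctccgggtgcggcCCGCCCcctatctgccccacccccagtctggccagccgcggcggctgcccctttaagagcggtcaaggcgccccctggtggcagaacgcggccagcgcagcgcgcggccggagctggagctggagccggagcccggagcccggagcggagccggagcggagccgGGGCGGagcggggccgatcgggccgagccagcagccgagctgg
The windows differ in base composition, with 46.0% G and C in Snx30, 58.7% in Vps26b, 57.3% in Vps36 and 74.3% in Vps37d. GGGCGG, searched on both strands, occurred 2 times in Vps37d and was not found in the other windows. Over all 52 windows of 45 of the 66 genes it was present in 36, or 69.2%, against 64.1% of the windows of tested genes and 35.7% of all 32851 windows. The palindrome CACGTG, the core of the E-box read by factors such as TFEB, a regulator of lysosomal genes, was in none of the 4 printed windows. It was present in 8 of the 52, or 15.4%, against 9.97% of the windows of tested genes and 7.15% of all windows. Those 8 windows belong to Snx5, Snx8, Snx18, Vps16, Vps33a, Vps50 and, with 2 windows, Vps26a. A match is a description of the letters and not a site of binding.

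Retromer is a trimer of Vps35, Vps29 and either Vps26a or Vps26b, and retriever is its relative built of Vps35l, Vps26c and the same Vps29. In neurons 4 of these 6 genes were higher and none was lower. Besides Vps26b, the other form of that subunit, Vps26a, had 11.27, 11.25 and 11.21 in the neuron samples, against 10.86, 10.85, 10.82, 10.85 and 10.62 in the NSC samples. Vps35, the scaffold of the trimer, had 8.66, 8.46 and 8.57 in the neuron samples, against 8.19, 8.23, 8.42, 7.92 and 8.14 in the NSC samples. Neuron arrays lay above NSC arrays for both, with differences of 0.44 (SE 0.09, adjusted p = 0.00172) for Vps26a and 0.38 (SE 0.12, adjusted p = 0.0149) for Vps35. Vps35l, the scaffold of retriever, had 10.62, 10.74 and 10.47 in the neuron samples, against 10.23, 10.17, 10.30, 10.18 and 10.23 in the NSC samples, which again did not overlap and gave a difference of 0.39 (SE 0.09, adjusted p = 0.00391). The subunit common to both complexes, Vps29, was not called at 0.02 (95% interval -0.18 to 0.22), an interval not adjusted for the number of genes, nor were any of its 3 probes, and Vps26c was not called at 0.11 (95% interval -0.19 to 0.41). The call of Vps35 was lost without Neuron 1 (adjusted p = 0.0608), and its difference was 0.62 with median scaling.

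HOPS and CORVET are built on a common core of Vps11, Vps16, Vps18 and Vps33a, to which HOPS adds Vps39 and Vps41. Vps33b, a relative of Vps33a that works with Vipas39 outside HOPS, is counted in the class by its name. Of the 7 genes tested, 5 were higher in neurons and none was lower, and without Vps33b the count was 4 of 6. Vps33a, the Sec1/Munc18-like subunit that helps assemble SNARE proteins for fusion, had 10.22, 10.42 and 10.35 in the neuron samples, against 9.64, 9.38, 9.32, 9.43 and 9.53 in the NSC samples. Vps18, a core subunit with a RING domain, had 8.67, 8.63 and 8.64 in the neuron samples, against 7.99, 8.27, 8.11, 7.96 and 7.90 in the NSC samples. These values did not overlap, with differences of 0.87 (SE 0.10, adjusted p = 2.58e-05) for Vps33a, which became 0.58 when its probes were averaged, and 0.60 (SE 0.11, adjusted p = 0.000453) for Vps18. Vps39, whose yeast counterpart links HOPS to the Rab GTPase of the vacuole, had 6.88, 6.85 and 6.81 in the neuron samples, against 5.64, 6.15, 6.24, 6.09 and 6.13 in the NSC samples. Its neuron arrays lay within 0.1 of each other and above all NSC arrays, 1 of which stood below the rest, and the difference was 0.80 (SE 0.13, adjusted p = 0.000327).

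Vps33b had 7.30, 7.45 and 7.23 in the neuron samples, against 7.03, 7.02, 6.89, 6.57 and 6.75 in the NSC samples, with no overlap and a difference of 0.48 (SE 0.12, adjusted p = 0.00599). Vps11, another core subunit, had 8.13, 8.23 and 8.24 in the neuron samples, against 8.05, 7.83, 8.16, 7.78 and 7.64 in the NSC samples. Its groups overlapped and its difference, 0.31 (SE 0.12, adjusted p = 0.0494), was at the edge of the threshold: it was lost with cyclic loess (0.19, adjusted p = 0.192), without a filter on dim probes (adjusted p = 0.081), and without NSC 2, NSC 4, NSC 5 or any 1 of the neuron samples (adjusted p = 0.0704 to 0.122). Vps41, the other subunit particular to HOPS, was not called at 0.37 (95% interval 0.03 to 0.71), with an adjusted p of 0.0529. It was called higher in 9 of 19 alternatives, among them median scaling (0.58, adjusted p = 0.00404), no background correction (0.26, adjusted p = 0.0346), without NSC 4 (0.45, adjusted p = 0.0188) and without Neuron 2 (0.45, adjusted p = 0.0477). Vps16, the partner of Vps33a in the core, was not called at -0.15 (95% interval -0.34 to 0.05), although its neuron arrays lay below its NSC arrays, and none of its 4 probes was called.

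The ESCRT genes moved in both directions. All 4 tested ESCRT-I genes with a Vps symbol rose, with a median difference of 0.99. Counted with Tsg101, Mvb12a, Mvb12b and Ubap1, the ESCRT-I subunits of the partner list, 6 of 8 were higher (75.0%) and 1 was lower (12.5%), with a median of 0.56. Over all tested genes 35.4% were higher and 29.2% lower. Of 6 tested ESCRT-III genes 1 rose, 1 fell and 4 were not called, with a median of 0.14, and the difference between the subcomplexes was not tested. Besides Vps37b and Vps37d, ESCRT-I was represented by Vps28, the subunit that binds ESCRT-II, at 12.47 ± 0.10 in neurons and 12.06 ± 0.09 in NSCs, and by Vps37c at 6.25 ± 0.12 in neurons and 5.78 ± 0.21 in NSCs (SD, n = 3 and 5). Their differences were 0.40 (adjusted p = 0.00363) for Vps28 and 0.47 (adjusted p = 0.00874) for Vps37c, and Vps37c measured 0.25 without background correction. Thus every Vps37 form that was detected stood higher in neurons, while the fourth form, Vps37a, was above background on no array.

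Neither ESCRT-II gene with a Vps symbol was called higher. Vps36 fell as given above, and Vps25, the subunit that contacts ESCRT-III, was not called at -0.15 (95% interval -0.39 to 0.08). The other ESCRT-II subunit, Snf8 of the partner list, was not called at 0.14 (adjusted p = 0.319). It is named outside the rule for partners, after its value was seen. Among the ESCRT-III proteins, which polymerize into the filaments that pinch off vesicles, Chmp1b had 9.38, 9.36 and 9.54 in the neuron samples, against 8.70, 8.93, 8.74, 8.84 and 8.56 in the NSC samples. Chmp4b, the main filament subunit, had 9.93, 9.87 and 9.58 in the neuron samples, against 10.48, 10.45, 10.22, 10.17 and 10.28 in the NSC samples. The neuron arrays lay above the NSC arrays for Chmp1b and below them for Chmp4b, with differences of 0.67 (SE 0.11, adjusted p = 0.000237) for Chmp1b and -0.53 (SE 0.12, adjusted p = 0.00229) for Chmp4b, and Chmp4b was -0.33 with median scaling. Chmp5, Chmp7, Chmp3 and Chmp2a were not called, at 0.32 (95% interval 0.01 to 0.64), 0.16 (95% interval -0.11 to 0.43), 0.11 (95% interval -0.17 to 0.39) and -0.09 (95% interval -0.40 to 0.23) in that order. Vps4a, an ATPase that takes the filaments apart, was higher by 0.49 (adjusted p = 0.0102) at 7.72 ± 0.20 in neurons and 7.23 ± 0.21 in NSCs with overlapping arrays, and its relative Vps4b was not called at -0.04 (95% interval -0.39 to 0.31).

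GARP consists of Vps51, Vps52, Vps53 and Vps54, and in EARP Vps50 takes the place of Vps54. The 3 of these genes found by their symbols, Vps50, Vps53 and Vps54, were all tested. Vps50 had 7.81, 7.89 and 7.56 in the neuron samples, against 6.82, 7.27, 6.86, 6.61 and 7.12 in the NSC samples, and Vps53, which is common to both complexes, had 10.45, 10.37 and 10.41 in the neuron samples, against 9.93, 9.78, 9.55, 9.77 and 9.88 in the NSC samples. All neuron arrays lay above all NSC arrays for both genes, with differences of 0.81 (SE 0.15, adjusted p = 0.000685) for Vps50 and 0.63 (SE 0.11, adjusted p = 0.000324) for Vps53, and the other 2 probes of Vps53 gave 0.43 and 0.49. Vps54, the subunit particular to GARP, was not called at -0.05 (95% interval -0.30 to 0.21). The difference between Vps50 and Vps54 was not tested.

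Sorting nexins share a PX domain that binds phosphoinositide lipids of endosomes. Of 28 on the platform 22 were tested, and 13 were higher in neurons, 4 lower and 5 not called. After Snx30 the largest rises were in members that carry little more than the PX domain. Snx12, a close relative of the retromer-associated Snx3, had 6.89, 7.03 and 6.67 in the neuron samples, against 5.24, 6.53, 6.15, 6.11 and 5.74 in the NSC samples. Snx16, which sits on early and late endosomes, had 7.62, 7.69 and 7.99 in the neuron samples, against 6.99, 7.28, 7.42, 6.65 and 6.86 in the NSC samples. Snx10, which is needed for the acid-secreting border of osteoclasts, had 9.50, 9.17 and 9.42 in the neuron samples, against 8.74, 8.76, 8.54, 8.63 and 8.69 in the NSC samples. For these 3 genes no neuron array was as low as any NSC array, and the differences were 0.91 (SE 0.24, adjusted p = 0.00623) for Snx12, 0.73 (SE 0.17, adjusted p = 0.00362) for Snx16 and 0.69 (SE 0.11, adjusted p = 0.000158) for Snx10. Of the 3, Snx12 varied most among NSC arrays, and it measured 0.52 without background correction.

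The other PX-only members were mixed. Snx11 rose by 0.42 (adjusted p = 0.00418) and Snx24 by 0.30 (adjusted p = 0.0169), Snx3 was not called at 0.05 (95% interval -0.21 to 0.31), and Snx21 fell, with 6.88 ± 0.14 in neurons and 7.51 ± 0.08 in NSCs, a difference of -0.64 (SE 0.10, adjusted p = 0.000204). Over the PX-only group 5 of 7 were higher (71.4%) and 1 lower (14.3%), beside 35.4% and 29.2% of all tested genes. Among the BAR-domain sorting nexins 4 of 9 were higher (44.4%) and 2 lower (22.2%). Snx1 and Snx2, which act with retromer on recycling tubules, differed by 0.69 (adjusted p = 0.0191) and 0.26 (adjusted p = 0.0394), while their partner Snx6 was not called at 0.20 (95% interval -0.03 to 0.42), nor was Snx4 at 0.24 (95% interval -0.05 to 0.53). Snx8 was higher by 0.32 (adjusted p = 0.0415). Snx9, Snx18 and Snx33 form a subfamily with an SH3 domain that acts with dynamin and actin at the plasma membrane. In that subfamily Snx33 was lower at -0.34 (adjusted p = 0.0329), in the same direction as Snx9, and Snx18 was not called at -0.13 (95% interval -0.34 to 0.09).

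Snx13, Snx14, Snx19 and Snx25 are related sorting nexins, most with an RGS-like domain, and some sit at contacts with the endoplasmic reticulum. All were called, where 64.6% of all tested genes were called in either direction. Snx25 at 0.33 (adjusted p = 0.0229), Snx14 at 0.31 (adjusted p = 0.0332) and Snx19 at 0.30 (adjusted p = 0.0458) were higher and Snx13 at -0.40 (adjusted p = 0.00489) was lower. Snx15, which pairs a PX with a MIT domain, was higher by 0.45 (adjusted p = 0.00145), and Snx17, a FERM-domain adaptor for receptors such as LRP1, was not called at 0.05 (95% interval -0.17 to 0.27). Many of the smaller calls among the sorting nexins were not stable to leaving out an array. Snx1 was 0.48 without Neuron 3 (adjusted p = 0.104), Snx25 was 0.22 without Neuron 2 (adjusted p = 0.12) and Snx24 was lost without Neuron 1 (adjusted p = 0.0559). Snx8 was lost without NSC 1, NSC 3, NSC 4, Neuron 2 or Neuron 3 (adjusted p = 0.0508 to 0.155), and Snx2 without NSC 1, NSC 2, NSC 5, Neuron 1 or Neuron 3 (adjusted p = 0.0659 to 0.123). Snx14 was lost without NSC 1, NSC 2, NSC 4 or any 1 neuron sample (adjusted p = 0.0521 to 0.0899), and Snx19 if any of NSC 1, 3 and 5 or Neuron 1 and 2 was left out (adjusted p = 0.076 to 0.176). Snx33 was lost on leaving out any of NSC 2, 3 and 5 or Neuron 1 and 2 (adjusted p = 0.0588 to 0.161). With median scaling Snx13 was -0.20 (adjusted p = 0.155) and Snx33 was -0.11 (adjusted p = 0.438). With cyclic loess Snx8, Snx14, Snx19, Snx24 and Snx25 lost the call (adjusted p = 0.0629 to 0.117). Without background correction Snx1 was 0.35, Snx13 was -0.24 and Snx19 was 0.13 (adjusted p = 0.162), and with its probes averaged Snx14 was 0.47. Without a filter on dim probes Snx8, Snx19 and Snx33 lost the call (adjusted p = 0.0531 to 0.0704).

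The remaining Vps genes were Vps45, a Sec1/Munc18 protein that acts in fusion with early endosomes, and Vps72, a subunit of a chromatin remodelling complex that carries the prefix although its known work is in the nucleus. Vps45 had 7.93, 8.28 and 7.98 in the neuron samples, against 7.65, 7.51, 7.74, 7.58 and 7.81 in the NSC samples, with no overlap and a difference of 0.41 (SE 0.11, adjusted p = 0.00922). Vps72 had 7.83, 8.10 and 7.98 in the neuron samples, against 7.76, 7.46, 7.73, 7.50 and 7.77 in the NSC samples, with a difference of 0.32 (SE 0.11, adjusted p = 0.0281). Vps45 was 0.30 without Neuron 2 (adjusted p = 0.0511), and Vps72 was lost without NSC 2, NSC 4, Neuron 2 or Neuron 3 (adjusted p = 0.0574 to 0.115) and under cyclic loess (0.21, adjusted p = 0.131).

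No gene of the set was detected in only 1 of the cell types among those tested. The genes above background on fewer than 3 arrays, which were not tested, numbered 12. Of these Chmp1a, Chmp4c, Snx5, Snx7, Snx20, Snx22, Snx31, Snx32, Vps13a, Vps13c and Vps37a were above background on no array, and Chmp2b was on 1 NSC array. Among those tested, Snx19 was detected on 3 neuron and 2 NSC arrays, Snx1 on 3 neuron and 4 NSC arrays and Vps4b on 2 neuron and 5 NSC arrays, and the other 51 were detected on all 8.

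A gene was represented by its brightest tested probe, and 16 genes had more than 1 tested probe, 40 probes in all. The probes of 10 genes received the same call, and those of none were called in opposite directions. All probes were higher for Snx14 (0.31, 0.47 and 0.64), Snx2 (0.26, 0.37 and 0.48), Vps39 (0.80 and 0.96), Vps33b (0.48 and 0.55) and Vps53. The calls differed in 6 genes. For Vps33a the dimmer probe gave 0.28 (adjusted p = 0.26), for Snx25 the other probe gave 0.23 (adjusted p = 0.233) and for Chmp4b it gave -0.19 (adjusted p = 0.305). A probe other than the brightest was called higher for Chmp2a (0.34, adjusted p = 0.0123) and Snx17 (0.29, adjusted p = 0.0316), and 1 probe of Chmp7 was called lower (-0.28, adjusted p = 0.0345) while its others lay above 0. Over all 78 tested probes of the set 42 were higher (53.8%) and 7 lower (8.97%), against 34.7% and 28.5% of all 10499 tested probes.

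**Figure D4:**
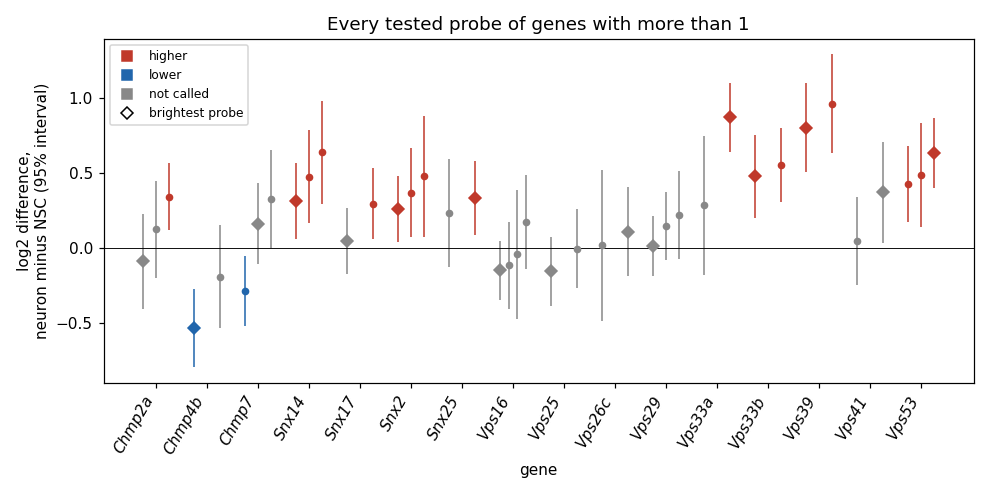
For the 16 genes with more than 1 tested probe, each point is a probe, with its log2 difference (neuron minus NSC) and 95% interval on the vertical axis; diamonds are the probes that represent the gene. The probes of Vps39, Vps53, Snx14, Snx2 and Vps33b all lie above 0, and those of Chmp7 lie on both sides.

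The partners of these complexes were counted from 4 lists. Of 13 ESCRT partners tested (15 on the platform), 5 were higher (38.5%) and 2 lower (15.4%) in neurons, with a median of 0.30. Over all tested genes 35.4% were higher and 29.2% lower, so the share of higher partners lay near that of all genes. Mvb12b, an ESCRT-I subunit, differed by 1.14 (adjusted p = 1.47e-06), and Stambp, the deubiquitinase also called AMSH, by 1.10 (adjusted p = 2.4e-06). The alternative ESCRT-I subunit Mvb12a differed in the other direction, by -1.13 (adjusted p = 2.29e-05). Cep55, which recruits ESCRT to the midbody of dividing cells, was detected on no neuron array and on all NSC arrays, at least 1.62-fold lower in neurons (adjusted p = 6.83e-05). It could pass the filter only through NSCs, and its direction was set there. Tsg101, the ESCRT-I core subunit that joins Vps28 and Vps37, was not called at 0.30 (adjusted p = 0.338) and is named here outside the rule for partners, after its value was seen.

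Of 15 partners of retromer, retriever and the actin-nucleating WASH complex (17 on the platform), 4 were higher (26.7%) and 3 lower (20.0%), with a median of -0.13. Over all tested genes the shares were 35.4% and 29.2%. Tbc1d5, a Rab7 inactivator bound to retromer, was 0.59 by its brighter probe (adjusted p = 0.00132) and -0.06 by its other probe (adjusted p = 0.767), and Commd8 was 0.46 (adjusted p = 0.00844). Commd1, like Commd8 a subunit of the COMMD complex that works with retriever, was -0.83 (adjusted p = 0.000108), and the WASH subunit Washc3 was -0.65 (adjusted p = 0.000122), with 1 of its 3 probes not called. These counts stand beside 4 of 6 higher and none lower for the retromer and retriever genes themselves, a difference that was not tested.

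Among 9 tested sorting receptors, cargo that these complexes carry, 6 were lower (66.7%) and 1 higher (11.1%) in neurons, with a median of -0.76. For all tested genes these shares were 29.2% and 35.4%. In 4 of them, Sorcs1, Sorl1, Igf2r and Sorcs3, the gene was detected in 1 cell type alone, so it could pass the filter only through the group in which it is brighter and its direction was set there. Of the 5 detected in both cell types 3 were lower and 2 not called, with a median of -0.36, where 29.2% of all tested genes were lower; the list was not tested. Sorcs1 was detected on all NSC arrays and no neuron array, at least 4.63-fold lower in neurons (adjusted p = 1.81e-09), and Sorl1 likewise, at least 3.53-fold lower (adjusted p = 1.69e-07). Sorcs3 showed the reverse, above background on every neuron array but on none from NSCs, at least 2.59-fold higher in neurons (adjusted p = 6.91e-08).

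Of 21 tested genes for endosome fusion and phosphoinositides (26 on the platform), 11 were higher (52.4%) and 4 lower (19.0%), with a median of 0.37. These shares stand beside 35.4% and 29.2% of all tested genes. The SNARE proteins Vamp4, at 1.91 (adjusted p = 1.52e-08), and Stx6, at 1.64 (adjusted p = 1.82e-05), had the largest rises and Vti1a was -1.29 (adjusted p = 6e-07). For Stx8 the direction is uncertain: its brightest probe gave -1.78 (adjusted p = 1.41e-08), whereas its other 3 tested probes were called higher at 0.34 to 0.51. Without it 11 of 20 were higher and 3 lower, with a median of 0.45. Beyond the genes the rule for partners names, and chosen after their values were seen, Tgfbrap1, a CORVET subunit, was 1.16 (adjusted p = 7.27e-06) and Vipas39, the partner of Vps33b, was 1.08 (adjusted p = 0.000475). Over all 58 tested partners 21 were higher (36.2%) and 15 lower (25.9%), with a median of -0.01, beside 35.4% and 29.2% of all tested genes, and without Stx8 the shares were 36.8% and 24.6% with a median of 0.01.

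**Figure D5:**
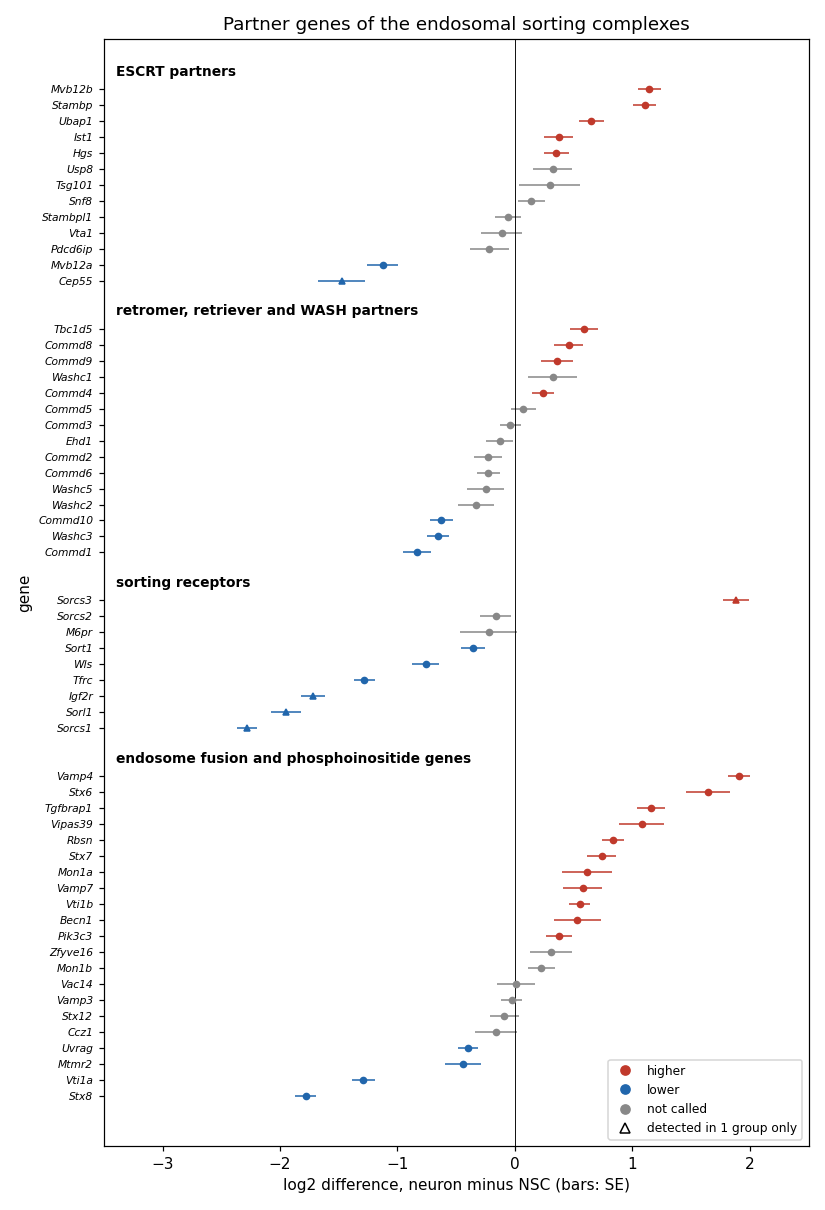
Each row is 1 of the 58 tested partner genes in 4 lists, with its log2 difference (neuron minus NSC) and SE on the horizontal axis; triangles mark genes detected in 1 cell type only, whose fitted value is not a measured size. The sorting receptors lie mostly to the left of 0, with Sorcs3 alone far to the right, and the fusion genes lie mostly to the right.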

How the data were processed

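The authors deposited 1 mean bead intensity per probe, on a linear scale and neither corrected for background nor scaled, for 8 arrays of 1 chip, with neurons at the last 3 positions and NSCs at the first 5. A detection score was also deposited, as a fraction whose complement served as the detection p. The log2 values that the authors deposited matched quantile normalization of the log2 signal to within 5e-09, and the submitters' processing notes name limma.

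From the signals, neqc in limma 3.58.1 (R 4.3.3) corrected the background with the detection p (offset 16), applied quantile normalization and took log2. This makes each difference relative to all probes and shrinks differences where a gene is dim. The test covered the 10499 of 25697 probes whose detection p was below 0.01 on 3 or more arrays, by lmFit and eBayes with group as the only term. P-values were Benjamini-Hochberg adjusted over these probes, with 0.05 as the threshold. A gene took its tested probe with the highest mean; genes were named from the platform annotation. Where a gene was detected in 1 group only, a fold is a bound: the bright group's mean is set against the dim probe, raised on each array to the dimmest detected signal where it lies under it.

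The members and lists were chosen with earlier results of these data known, and no list was tested. Values on every array are given for up to 5 called members per class with the largest differences, and partners are the 2 largest called differences per direction and list. Alternatives changed the background, offset, scaling, filter, variance, weights, probe rule and arrays, and used the authors' values or a replicate block. The procedure was tested on simulated data. The number of arrays limits the precision. Same-numbered samples did not deviate together (correlations of -0.017, 0.014 and 0.015), so the numbers were not used to pair samples.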

Additional observations from a re-analysis of the deposited data

Results flagged for a closer look

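In 3 of the 54 tested genes, 1 of the 5 NSC arrays lay far from the other 4 by Dixon's criterion, which chance alone meets in about 1 in 20 groups. Vps39 was at 5.64 in NSC 1, where the other NSC samples lay between 6.09 and 6.24. Vps26a was at 10.62 in NSC 5, against 10.82 to 10.86 in the others. Snx8 was at 8.01 in NSC 3, against 8.32 to 8.43 in the others.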

How the results depend on the processing

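No called gene of the 54 changed direction in the 19 alternatives, and 25 of the 38 called genes were called in every alternative run on them. The other 13 lost the call in some, and 5 uncalled genes gained it in some: Vps41 in 9, Chmp5 in 2, and Chmp7, Snx4 and Snx6 with median scaling. The counts were 29 higher and 6 lower with no filter, 25 and 6 with cyclic loess, 37 and 4 with median scaling, and 26 to 30 and 5 to 6 without 1 array. With the replicate number as a replicate block (3 arrays per group) they were 23 and 5, although the numbers do not pair the samples: Neuron 1 correlated best with another number. Class medians moved by more than the replicate spread as follows. Without background correction, which equals the authors' values, HOPS and CORVET had 0.331, ESCRT 0.158 and sorting nexins 0.263, and with an offset of 50 HOPS and CORVET had 0.380. The median over the tested genes of the set was 0.265 without background correction, 0.537 with median scaling, 0.247 with cyclic loess and 0.279 with no filter, and over all genes it was 0.232 with median scaling, -0.00011 with cyclic loess and 0.0011 with no filter. With median scaling retromer had 0.577, HOPS and CORVET 0.685, ESCRT 0.390, GARP and EARP 0.830, sorting nexins 0.481 and other Vps genes 0.587. With cyclic loess HOPS and CORVET had 0.357 and sorting nexins 0.233. Detection on all 8 arrays gave ESCRT 0.322, no filter gave ESCRT 0.0616 and sorting nexins 0.218, and the mean of the probes gave GARP and EARP 0.514. Without 1 array HOPS and CORVET ranged from 0.451 to 0.579, and moved by more than that spread only without NSC 2 (0.579) or Neuron 2 (0.575). Sorting nexins ranged from 0.252 to 0.298, and moved by more than it only without Neuron 1 (0.259) or Neuron 2 (0.252). Among called genes, 7 moved by over 1.5 times without background correction and 13 with median scaling. Of the named partners Tbc1d5 (0.27, adjusted p = 0.0692) and Stx8 (-0.11, adjusted p = 0.236) lost their calls with the mean of the probes. Causes were not tested. For dim genes such as Vps26b and Snx9 the size of the difference depended on the background correction.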

Other observations

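The values of related genes are set side by side here, and the differences between them were not tested. Vps26b had a difference of 1.49 (95% interval 1.13 to 1.85) and Vps26a one of 0.44 (95% interval 0.24 to 0.65). Among Vps37 forms the differences were 1.55 (95% interval 1.27 to 1.84) for Vps37d, 1.50 (95% interval 1.26 to 1.74) for Vps37b and 0.47 (95% interval 0.18 to 0.76) for Vps37c. Vps33a had 0.87 (95% interval 0.64 to 1.10) and Vps33b 0.48 (95% interval 0.20 to 0.75), intervals that overlap. Snx12 had 0.91 (95% interval 0.38 to 1.44), and its relative Snx3 had 0.05 (95% interval -0.21 to 0.31). Vps4a had 0.49 (95% interval 0.18 to 0.79) and Vps4b -0.04 (95% interval -0.39 to 0.31), which overlap as well. All are neuron minus NSC on the log2 scale.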
